A study of Caenorhabditis elegans with 2 samples.

Results

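The genes described here are 10 regulators of histone methylation that act in the germline of Caenorhabditis elegans: mes-2, mes-3, mes-4, mes-6, met-1, met-2, set-2, set-25, mrg-1 and spr-5. They were chosen by name, 10 of the 19973 protein-coding genes of assembly WBcel235 (ce11), and all 10 were found in the annotation. Each was examined for sites of the DNA-binding protein MADF-8 by chromatin immunoprecipitation with sequencing (ChIP-seq). A gene was counted as having a site when the summit, the point of highest signal, fell inside a window that began 1000 bp before the gene start and ran to the gene end. In this window 5 of the 10 genes had a site, namely mes-2, mes-6, met-1, set-2 and mrg-1, and the other 5 had none.

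The samples were 2 biological replicates of 1 group, whole young adult worms aged 64 hours that had been synchronised as starved first-stage larvae. They came from strain RW12322, in which CRISPR was used to insert a TY1, EGFP and 3xFLAG tag at madf-8 itself (allele st12322), and the immunoprecipitation used an antibody against GFP. No second genotype, treatment or age was examined, so the comparisons are between genes and between replicates. Because whole animals were used, a site may come from germline or from any other tissue, and these files hold no measure of which, nor any measure of expression; that the 10 genes act in the germline is background knowledge. The deposited files are lists of sites, so the depth of the libraries is unknown.

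Histone methyltransferases place methyl groups on lysines of histone tails, demethylases remove them and reader proteins bind them. In the worm germline the products of mes-2, mes-3 and mes-6 form the Polycomb repressive complex PRC2, which methylates lysine 27 of histone H3 (H3K27), while MES-4 maintains methylation of lysine 36 (H3K36) on genes expressed in germ cells. Maternal loss of any of these mes genes leaves offspring sterile, and the balance of both marks is known for keeping the X chromosome repressed in germ cells. Methylation of lysine 4 (H3K4) marks promoters, and methylation of lysine 9 (H3K9) marks heterochromatin.

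The sequences at 4 of the 5 sites are shown because they are the stretches on which the MADF-8 signal peaked. That of met-1 was searched for the same words but is not shown here. Each holds the summit and 50 bases on each side, read 5′ to 3′ on the strand of the gene, from the RefSeq copy of WBcel235. Capitals in mes-2 and set-2 mark the word TTCGCGCC, and capitals in mes-6 mark GGTCTCGC, the reverse complement of GCGAGACC; mrg-1 has no capitals because it held none of the words of 8 bases searched. The windows are chrII:14383786-14383886 (plus strand) for mes-2, chrIV:8511191-8511291 (plus strand) for mes-6, chrIII:4930397-4930497 (minus strand) for set-2 and chrIII:12874863-12874963 (minus strand) for mrg-1.
mes-2: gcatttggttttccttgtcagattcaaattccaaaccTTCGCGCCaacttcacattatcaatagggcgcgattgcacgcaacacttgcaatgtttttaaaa
mes-6: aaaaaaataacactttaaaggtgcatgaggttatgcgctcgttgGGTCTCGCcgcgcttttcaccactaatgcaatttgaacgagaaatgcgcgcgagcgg
set-2: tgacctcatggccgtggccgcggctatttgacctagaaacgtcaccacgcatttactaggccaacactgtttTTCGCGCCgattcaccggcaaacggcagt
mrg-1: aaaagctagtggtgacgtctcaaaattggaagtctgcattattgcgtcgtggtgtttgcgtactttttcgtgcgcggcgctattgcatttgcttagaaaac

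Across the genome the same rule gave a site to 2007 of the 19973 protein-coding genes (10%), against 5 of the 10 genes described here (50%, 95% Wilson interval 23.7% to 76.3%). The 10 genes are long, with windows of 3186 to 13161 bp (median 6958.5 bp) against a median of 3027 bp for all genes. Among the 8580 genes with windows in that range, 1037 (12.1%) had a site. The share was 7.97% for shorter windows and 17.4% for longer ones, and genes within the range were not matched on length. None of the 10 lies on the X chromosome, and 11.4% of the autosomal genes had a site. The count is a description with no test, since the genes were listed with earlier results of these data known. All 5 genes with a site had exactly 1, as did 89.3% of all genes with a site.

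**Figure D1:**
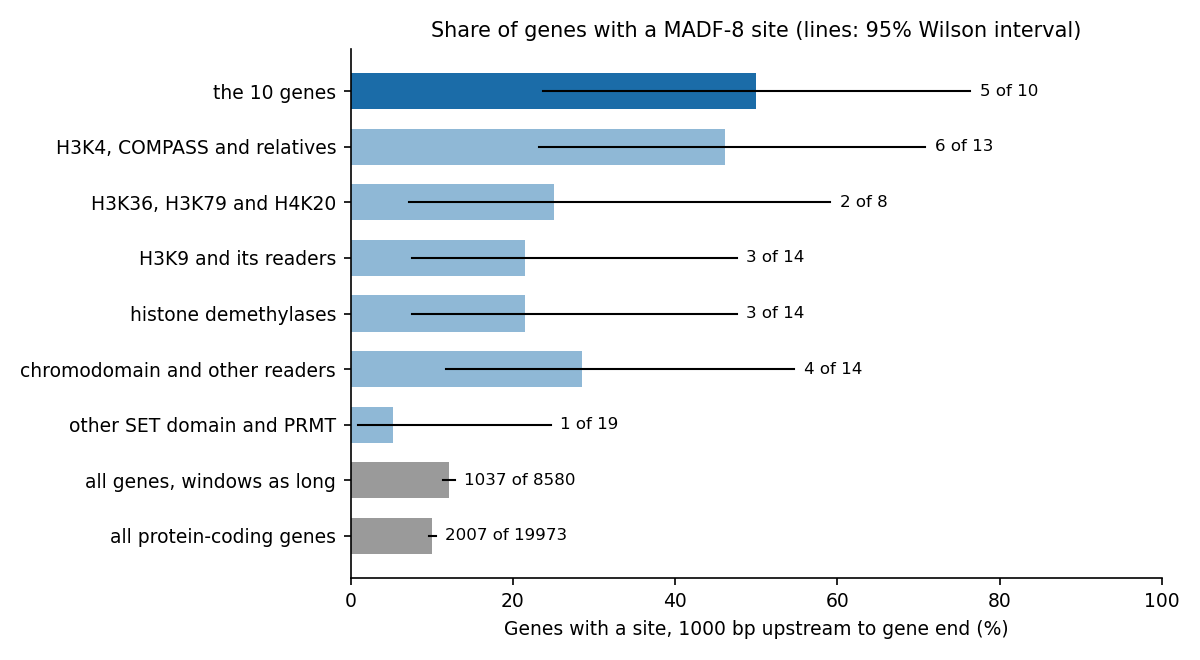
Share of genes with a MADF-8 site in the window from 1000 bp upstream to the gene end, in percent, for the 10 genes (dark bar), 6 lists of other histone methylation genes (light bars) and 2 backgrounds (grey bars); lines are 95% Wilson intervals, which cover counting error over genes only. The bar of the 10 genes stands at 50% and that of all protein-coding genes at 10%.

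Of the PRC2 genes, mes-2 and mes-6 had a site just before the gene start and mes-3 had none. The gene mes-6 (WBGene00003224; IV, 8511284 to 8513469, plus strand), whose product is the WD-repeat subunit related to fly ESC, had the stronger site (8511103 to 8511378). Its signal, a value per site given by the authors in their own scale, was 188.1 in the list made from both replicates, 97.7 in replicate 1 and 95.4 in replicate 2. The summit lay 43 bp upstream of the start in the list of both replicates, and 18 and 25 bp upstream in replicates 1 and 2. In the list of both replicates 27.8% of the 1972 sites were stronger, against 33.5% in replicate 1 and 37.7% in replicate 2.

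The gene mes-2 (WBGene00003220; II, 14383973 to 14388454, plus strand), which encodes the catalytic methyltransferase of PRC2 related to fly E(z), had a weaker site (14383698 to 14383973). Its signal was 97.0 in the list of both replicates, 58.2 in replicate 1 and 43.4 in replicate 2. The summit lay 137 bp upstream of the start, and 187 and 144 bp upstream in replicates 1 and 2. Of the sites, 64.8% were stronger in the list of both replicates, 68.5% in replicate 1 and 94.5% in replicate 2, so the site ranked near the bottom of the replicate 2 list.

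The gene mes-3 (WBGene00003221, on I, 4996835 to 5003202, plus strand) encodes the remaining PRC2 subunit. The authors also deposited ranked lists of every candidate, 40115 in replicate 1 and 31379 in replicate 2, each with a score derived from the irreproducible discovery rate (IDR); a score of 1000 is the top value and the kept sites begin at 830. Its strongest candidate in the ranked list of both replicates had a signal of 44.2 and a score of 90 and lay 5069 bp downstream of the start. Candidates of the other genes without a site are likewise given from the ranked list of both replicates unless a replicate is named. Candidates 5043 bp downstream in replicate 1 and 5044 bp downstream in replicate 2 overlapped, with signals of 19.8 and 22.4 and scores of 54 and 51. The candidate nearest to the start of mes-3 in either replicate lay 962 bp upstream, in replicate 1, with a signal of 16.2 and a score of 14.

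Of the genes of H3K36 methylation, met-1 and mrg-1 had a site and mes-4 had none. The gene met-1 (WBGene00016603; I, 4254197 to 4264699, plus strand) encodes an H3K36 methyltransferase related to human SETD2. Its site (4254793 to 4254863) had a signal of 204.9 in the list of both replicates, 103.0 in replicate 1 and 95.3 in replicate 2. Unlike the other 4 sites it lay inside the gene, with a summit 618 bp downstream of the gene start, in an intron of the 3 transcripts that span it. The annotation gives met-1 4 transcript starts; the summit lay 349 bp downstream of the third and 578 bp upstream of the last. In both replicates the summit lay 620 bp downstream of the gene start. Of the sites, 25.3% were stronger in the list of both replicates, 31.0% in replicate 1 and 37.9% in replicate 2.

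The gene mrg-1 (WBGene00003406; III, 12871029 to 12874656, minus strand) encodes a chromodomain protein related to human MRG15, which binds methylated H3K36. Its site (12874775 to 12875050) had a signal of 93.9 in the list of both replicates, and 67.4% of the sites were stronger. Alone of the 5 it was absent from the site lists of both single replicates and from the companion list that the authors name conservative. The same interval scored 1000 in one ranked list of both replicates and 521 in the one from which the conservative sites were taken. The overlapping candidate had a signal of 27.6 and a score of 30 in replicate 1, and a signal of 74.97 and a score of 470 in replicate 2. The score was higher in replicate 2, and neither replicate reached 830. Further candidates of mrg-1 that were not kept lay 225 bp downstream of the start, with a signal of 56.2 and a score of 343, and 3580 bp downstream, with a signal of 58.5 and a score of 601.

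The gene mes-4 (WBGene00003222; V, 13433050 to 13437545, minus strand) encodes the H3K36 methyltransferase related to the human NSD family. Its strongest candidate had a signal of 40.7 and a score of 143 and lay 551 bp upstream of the start. Replicate 1 had an overlapping candidate there, with a signal of 28.4 and a score of 29, and replicate 2 had none upstream of the start. The strongest candidate of replicate 2 lay 2370 bp downstream of the start, with a signal of 20.2 and a score of 99.

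The H3K4 methyltransferase gene had a site and the H3K4 demethylase gene had none. The gene set-2 (WBGene00004782; III, 4922427 to 4930204, minus strand) encodes the catalytic subunit of the SET1/COMPASS complex, and its site (4930381 to 4930460) was the strongest of the 5. The signal was 217.4 in the list of both replicates, 108.5 in replicate 1 and 106.1 in replicate 2. The summit lay 243 bp upstream of the start, and 245 and 239 bp upstream in replicates 1 and 2. In the list of both replicates 23.3% of the sites were stronger, against 28.4% in replicate 1 and 33.5% in replicate 2. A further start of set-2 lies 4104 bp inside the gene, and none of the kept sites lay inside set-2.

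The gene spr-5 (WBGene00005010; I, 13438058 to 13450218, plus strand) encodes the demethylase related to human LSD1. Its strongest candidate had the lowest signal among the strongest candidates of the 10 genes, in the ranked list of both replicates and in each replicate. It had a signal of 25.5 and a score of 81 and lay 10678 bp downstream of the start. In replicate 1 the strongest candidate had a signal of 15.05, in replicate 2 the only candidate had a signal of 12.6, and no candidate of replicate 1 overlapped that of replicate 2.

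Neither gene of H3K9 methylation had a site. The gene met-2 (WBGene00019883; III, 8375300 to 8380848, plus strand) encodes the methyltransferase related to human SETDB1, which places the first methyl groups on H3K9. Its strongest candidate had a signal of 53.4 and a score of 147 and lay 5208 bp downstream of the start, near the gene end. In replicate 2 the corresponding candidate had a signal of 21.7 and a score of 35. The highest score at met-2 in replicate 1 was 269, at a candidate 2299 bp downstream of the start with a signal of 32.2. Near the start, overlapping candidates 320 bp downstream in replicate 1 and 442 bp downstream in replicate 2 had signals of 17.8 and 18.3 and scores of 43 and 16.

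The gene set-25 (WBGene00012802; III, 13283824 to 13293090, minus strand) encodes the methyltransferase that completes trimethylation of H3K9. Its strongest candidate lay just inside the start, and both replicates had an overlapping candidate there. It had a signal of 47.5 and a score of 184 in the ranked list of both replicates, with a summit 213 bp downstream of the start. Its signal was 25.1 with a score of 48 in replicate 1 and 33.4 with a score of 269 in replicate 2, with summits 227 and 172 bp downstream. Another candidate, 4783 bp downstream of the start, had the higher score of 281 and a signal of 40.5; the overlapping candidate of replicate 1, 4741 bp downstream, scored 433, and that of replicate 2, 4807 bp downstream, scored 16.

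**Figure D2:**
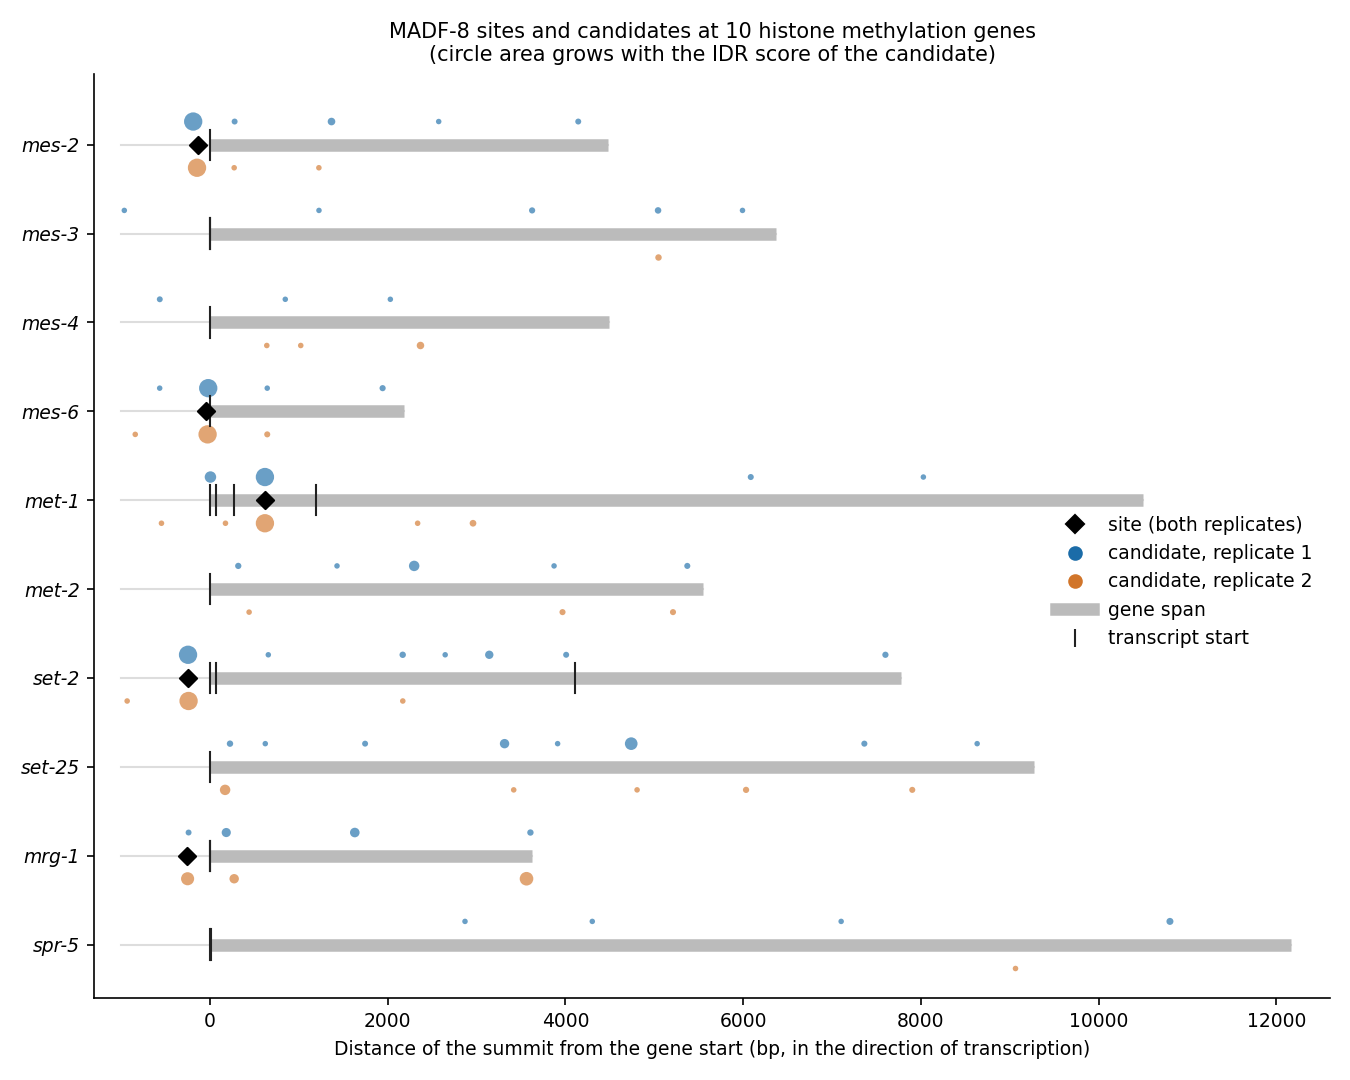
Positions of MADF-8 sites (diamonds) and of candidates in the ranked lists of replicate 1 (blue) and replicate 2 (orange) at the 10 genes, by distance of the summit from the gene start in bp, negative values being upstream. Grey bars are gene spans, ticks are transcript starts, and the area of a circle grows with the IDR score; 4 of the 5 diamonds lie before the start and that of met-1 lies 618 bp after it.

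At mes-2, mes-6, met-1 and set-2 both replicates alone gave a site, each with the top score of 1000. In each replicate taken alone, these 4 of 10 genes compare with 7.36% of all protein-coding genes in replicate 1 and 8.72% in replicate 2. Among genes with windows in the range of the 10 genes, the shares were 8.87% and 10.5%. The share of genes with a site in both of these lists was not computed. Summits in a replicate lay within 50 bp of the summit from both replicates at mes-2, within 25 bp at mes-6, within 2 bp at met-1 and within 4 bp at set-2. In replicate 1 the signals of mes-6, met-1 and set-2 (97.7 to 108.5) were above the median of that list, 72.4, and in replicate 2 they (95.3 to 106.1) were above its median, 78.1. The signal of mes-2 was below the median in both. The scale of the signal is not given in the sources used here, so signals were compared within a list only.

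**Figure D3:**
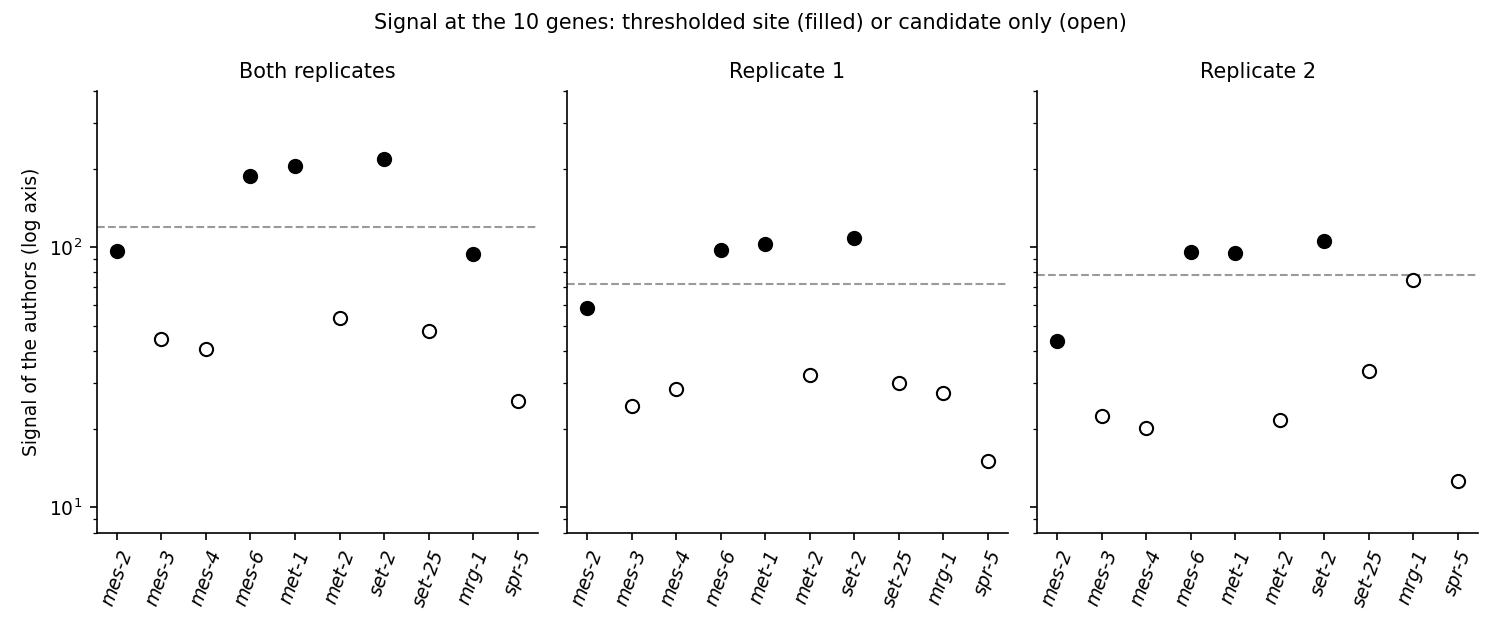
Signal at each of the 10 genes in the list of both replicates (left), replicate 1 (middle) and replicate 2 (right), on a log axis; filled points are kept sites, open points are candidates below the IDR threshold (for mrg-1 the candidate at its site, otherwise the strongest in the window), and the dashed line is the median of the kept sites. The sites of mes-6, met-1 and set-2 stand above the dashed line in each panel, while mes-2 stands below it.

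Every one of the 10 genes had at least 1 candidate in the ranked list of each replicate, as did 55.7% of all protein-coding genes and 69.5% of genes with windows of the same range. At 9 of the 10 genes a candidate of replicate 1 overlapped one of replicate 2, spr-5 being the exception. Such an overlap was found at 41.9% of all protein-coding genes and at 51.7% of those with windows of the same range. Both shares rose with window length. Candidates in both replicates were found at 42.1% of genes with shorter windows and 95.6% of those with longer ones. For overlapping candidates these shares were 31.4% and 85.3%. Genes were not matched on length within the range, so the 2 counts have no length-matched background. At the 5 genes without a site the highest score ran from 29 to 433 in replicate 1 and from 16 to 269 in replicate 2. Of the 5 sites, that of mrg-1 had the highest IDR in the ranked list of both replicates, 0.0012, and of the genes without a site set-25 had the lowest, 0.209. The strongest candidate of these 5 genes, that of met-2 at 53.4, was above the signal of 3.60% of the kept sites.

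**Figure D4:**
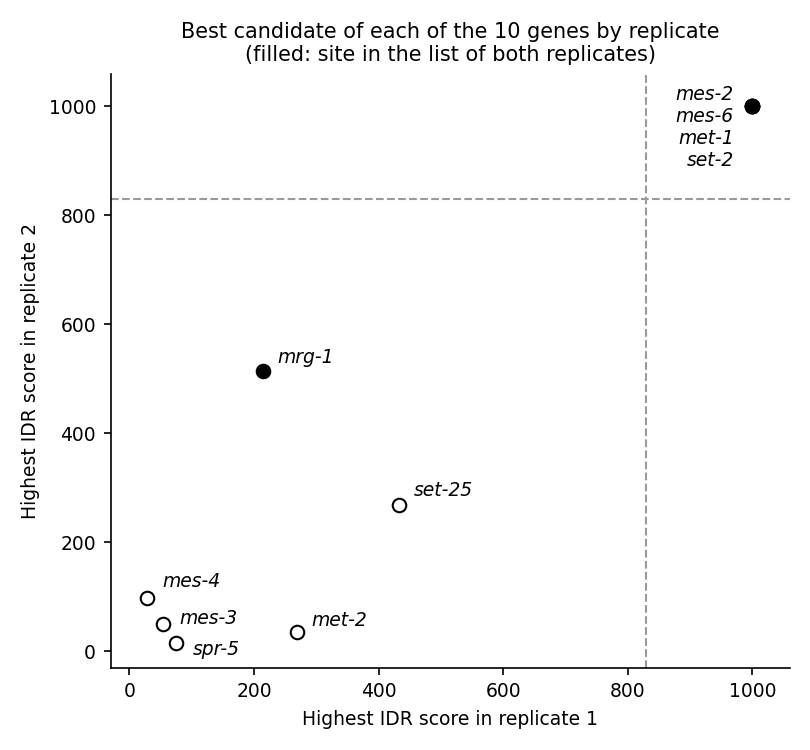
Highest IDR score of any candidate in the window of each gene, replicate 1 on the x axis and replicate 2 on the y axis, with dashed lines at the lowest kept score of 830. Filled points had a site in the list of both replicates; mes-2, mes-6, met-1 and set-2 share the point at 1000 in both, while mrg-1 stood below the lines, with its highest score in replicate 2 (514) 3563 bp downstream of its start and not at its site.

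Counting only summits in a promoter window, which reached 500 bp before and 100 bp past any coding transcript start, 4 of the 10 genes had a site, against 6.97% of all protein-coding genes. The gene lost was met-1. The summits of mes-6, mes-2, set-2 and mrg-1 lay 43, 137, 243 and 257 bp upstream, within the range between the quartiles of all genes with a site, for which the nearest summit had a median distance of -189 bp and quartiles of -387.5 and -29 bp, negative values being upstream. Of all genes with a site, 77.5% had the nearest summit upstream of the start. The sites of met-1 and set-2 were narrow, at 71 and 80 bp, where 73.0% of the sites in the list were 276 bp wide and 4.01% were under 100 bp. In the replicate lists both sites were 250 bp wide in replicate 1 and 264 bp wide in replicate 2.

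**Figure D5:**
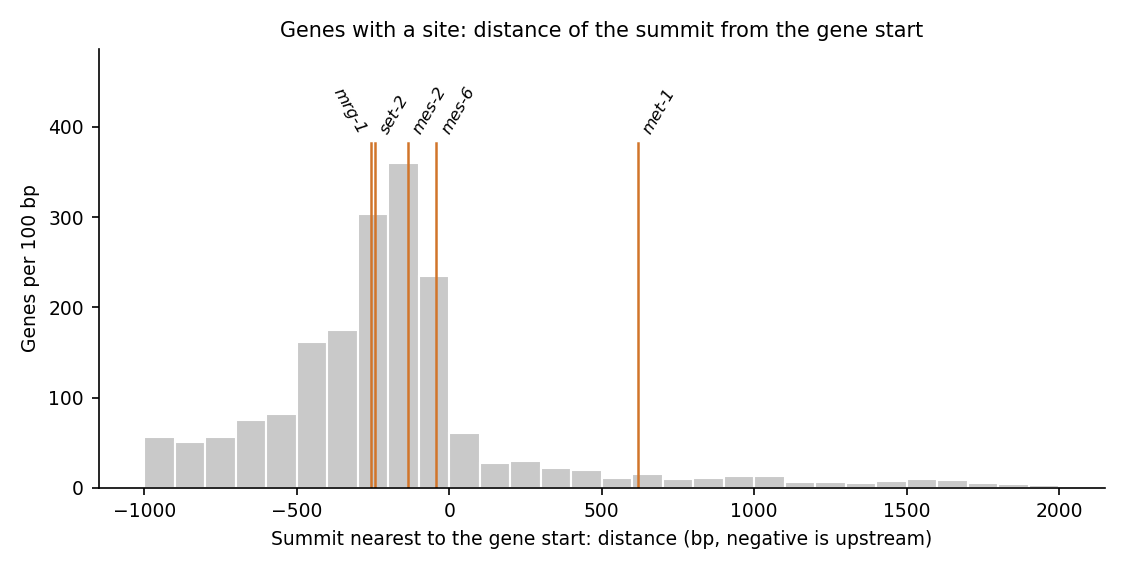
Number of genes per 100 bp by the distance of their nearest summit from the gene start (1845 of the 2007 genes with a site, from 1000 bp upstream to 2000 bp downstream, negative values being upstream), with the 5 genes described here as orange lines. The lines of mrg-1, set-2, mes-2 and mes-6 fall where the grey bars are tallest, and that of met-1 falls 618 bp downstream.

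The neighbours of the 5 sites differed. The summit at mrg-1 lay in the 374 bp between mrg-1 and the divergent gene spcs-2, which encodes a subunit of the signal peptidase complex, and was nearer to spcs-2 (118 bp) than to mrg-1 (257 bp). When each site was given to the nearest start only, this site passed to spcs-2. A second site (III, 12875733 to 12876008, signal 75.9) lay 1215 bp upstream of the start of mrg-1, beyond its window. The summit at mes-6 lay 43 bp from mes-6 and 693 bp from the start of the divergent gene tag-77. At mes-2, met-1 and set-2 no other gene start lay within 1000 bp of the summit. Upstream of these 3 genes the neighbour runs on the same strand and ends 593 bp (sdz-26), 57 bp (C43E11.12) and 397 bp (C26E6.12) before the start.

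Among the 5 genes without a site, met-2 and spr-5 also follow a same-strand gene closely, lmbr-1 by 127 bp and eif-3.J by 94 bp, and the windows of those neighbours held no site either. The upstream neighbours of mes-3, mes-4 and set-25 are divergent and 2159 to 4415 bp away. The 10 genes thus split evenly into 5 with a same-strand neighbour upstream, of which 3 had a site, and 5 with a divergent neighbour, of which 2 had a site. Over all protein-coding genes 10% had a site. That share was not computed by orientation, so the 2 counts have no matched background.

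The words searched in the site sequences were the 3 words of 8 bases, on either strand, whose share differed most between 1133 promoter sites of other genes and 17961 windows at genes with no site, leaving out words that share 6 bases in a row with one already taken. AAGGCGCA was present in 11.6% of the promoter sites and 0.356% of the windows, GCGAGACC in 10.5% and 0.351%, and GCCTTTAA in 10.6% and 0.473%. Of the 5 sites described here, that at mes-6 held GCGAGACC, and the sites at mes-2, met-1, set-2 and mrg-1 held none of the 3, nor did they within 100 bp of the summit. In the 300 bases around the start of all protein-coding genes (250 before and 50 after) the words were present in 1.53%, 1.32% and 1.68%.

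TTCGCGCC and the shorter GCGCG, which every TTCGCGCC holds on its other strand, were chosen after the sequences above had been read, so their presence there is a description. TTCGCGCC was present once at mes-2 and once at set-2, and in 3.46% of the 1967 sites of other genes, 0.106% of the windows at genes with no site and 0.481% of the 300-base promoters. GCGCG was present at mes-2, mes-6, set-2 and mrg-1 and not at met-1, the single match at set-2 being the one inside TTCGCGCC, and in 36.9% of the other sites, 4.21% of the windows and 14.1% of the promoters. The stretches shown were 40.6% G and C at mes-2, 44.6% at mrg-1, 47.5% at mes-6 and 55.4% at set-2, where the other sites had a median of 43.6% and the windows at genes with no site a median of 33.7%. A match is a run of letters and not evidence of which protein reads it.

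The wider family of histone methylation genes was examined in 6 lists holding 82 matched genes, of which 19 (23.2%) had a site. Of these, 12 had one also in the list of each replicate alone. In the promoter window 14 of the 82 (17.1%) had a site, against 6.97% of all protein-coding genes. Where a gene had several sites the strongest is given. In the list of H3K4 methylation, 6 of 13 genes had a site, led by set-16, which encodes a relative of the human MLL methyltransferases (signal 332.9, summit 169 bp upstream of the start), ash-2 (242.4, in the gene 482 bp downstream) and wdr-5.3 (154.3, 195 bp upstream). The summit at ash-2 also lay in the promoter window of a further coding transcript start of that gene. Both ash-2 and rbbp-5, a gene named after its value was seen (signal 114.95), encode subunits that work with SET-2 in COMPASS. The similar paralogs set-9 and set-26, also named afterwards, had signals of 100.6 and 100.4. The first had a site in replicate 2 only and the second in replicate 1 only. Whether reads of such similar genes were placed at the wrong copy was not tested.

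In the list of H3K9 methylation and its readers 3 of 14 had a site, namely set-21 (signal 307.0), lin-61 (266.9), which encodes a reader with MBT repeats, and arle-14 (78.1), which encodes a partner of MET-2. In the list of H3K36, H3K79 and H4K20 methylation 2 of 8 had a site, dot-1.1 (172.6), for an H3K79 methyltransferase, and set-4 (90.5), for an H4K20 methyltransferase. Of 14 genes listed as histone demethylases 3 had a site, psr-1 (356.7), jmjd-4 (220.1) and jmjd-1.2 (126.9). Of 14 chromodomain and other readers 4 had a site, ekl-1 (173.2), cec-5 (104.4), cec-7 (75.9) and, named after its value was seen, cec-10 (68.4). Only that of cec-5 lay in the promoter window. The summits at ekl-1, cec-7 and cec-10 lay in the gene, 2817, 1706 and 1087 bp downstream of the start. The site of cec-7 was the one 1215 bp upstream of mrg-1. Of 19 other SET domain and PRMT genes only prmt-9 had a site (66.2). Neither replicate alone gave a site at arle-14 or cec-10, and only replicate 2 did at set-4, cec-7 and prmt-9. Of the 82 genes 19 lie on X, and none of these had a site, where 41 of all 2731 protein-coding genes on X (1.5%) had one. The signals of these sites, from 66.2 to 356.7 with a median of 126.9, covered the range of those at the 10 genes, from 93.9 to 217.4, and the share of each list is a description with no test.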

How the data were processed

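ChIP-seq site lists of tagged MADF-8 from 2 biological replicates of 1 group were used. Per the labels and the file descriptions, the authors deposited for each replicate, and for the pair, a ranked list of candidates and a thresholded list on assembly ce11, made with a control that was not analysed here. The score deposited for each site is its IDR on a scale topped at 1000, the deposited signal is a value per site whose scaling is not given in the sources used here, and the deposited −log10 of the global IDR stands at an IDR of 0.00999 at the lowest kept score, 830, in replicate 1. The summit offset was used as deposited. Ranked lists of the pair hold 16 further columns of per-replicate values with no sample name, which were not used. Neither the aligner nor the peak caller is named in the labels or files used here, and depth is unknown, so intervals cover counting error only.

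Site ends were checked against the chromosome lengths of WBcel235. Genes came from Ensembl release 115. The 10 genes and the 6 lists (84 names, of which set-33 and prmt-3 had no match) were chosen with earlier results of these data known, so no test was made. Named were all 10 genes, their neighbours, up to 3 genes with the strongest site in each list, and the tagged madf-8. The genes rbbp-5, set-9, set-26 and cec-10 fall outside this rule and were named after their values were seen. So were cdc-6, mesp-1, imb-2 and F26F4.9, which lie near sites outside the windows. Words were counted within 50 bp of summits; windows at genes with no site were set at the distances of the promoter sites from their starts. The word ranking was tested on simulated sequences with planted words. Simulated summits checked only the upstream limit of the window rule, written out separately, so the counting of genes itself was not tested. Alternatives were 9 other site sets and windows, and a wider word window. Tables were handled in pandas 2.3.3 on Python 3.11.15 with numpy 2.4.6, intervals came from scipy 1.17.1, and plots from matplotlib 3.10.9.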

Additional observations from a re-analysis of the deposited data

How the results depend on the processing

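The count of 5 genes with a site was 5 with an upstream reach of 500 or 2000 bp and with any overlap in place of the summit. It was 4 in the conservative list, without replicate 1, without replicate 2 and with each site given to the nearest start, mrg-1 being the gene lost each time, and 4 in the promoter window, where met-1 was lost. Among the stronger sites by signal it was 3, without mes-2 and mrg-1; that set holds fewer sites by construction, and there 5.76% of all protein-coding genes and 10 of the 82 other histone methylation genes had a site. With each site given to the nearest start 12 of those 82 had one, against 7.25% of all protein-coding genes. The share of all genes with a site ran from 5.76% to 12% over the alternatives. With 100 bp on each side of the summit, AAGGCGCA, GCGAGACC and GCCTTTAA were present at 14.8%, 11.9% and 14.2% of the promoter sites. No paired analysis was possible because there is 1 group.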

Other observations

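Outside the windows of the 10 genes, the site nearest to met-1 lay 5765 bp past its end (signal 58.5), next to the start of cdc-6, which encodes a DNA replication licensing factor. The site nearest to mes-6 lay 11074 bp upstream of it (127.4), 900 bp from the start of mesp-1, which encodes a meiotic spindle protein. That nearest to mes-2 lay 18682 bp upstream (116.6), 410 bp from the start of imb-2, for an importin. For set-2 the nearest lay 9918 bp past its end (98.2), 12 bp from the start of F26F4.9. For the genes without a site the nearest lay 9643 bp (set-25), 13721 bp (spr-5), 16902 bp (met-2), 23782 bp (mes-4) and 29156 bp (mes-3) away. The tagged gene madf-8 had a site with a signal of 81.2, below each of the 5 sites described here, and 79.5% of the sites were stronger than it.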
